A study of Bombyx mori with 9 samples.

Results

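Cuticular protein genes that lack the RR motif were taken from the silk gland counts of the mulberry silkworm, *Bombyx mori*, as every gene ID that starts with CPG, CPH, CPT, CPF, CPFL or CPAP followed by a digit. The rule found 70 of the 16674 IDs, namely 34 CPH, 28 CPG, 4 CPFL and 4 CPT genes. No ID of the CPF or CPAP form matched. The counts came from 9 libraries, each made from the whole silk glands of 1 larva on day 3 of the fifth instar, with 3 larvae per strain. LAT51 larvae were reared at CAR, the cooler site, and MO204 and DMMMSU119 larvae at TCMO, the warmer one. LAT51 and MO204 are priority strains for local rearing, and DMMMSU119 was kept in the study as a poorly performing strain. LAT51 was the only strain from CAR, so site and strain cannot be told apart wherever it is compared.

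Insect cuticle is built from chitin fibres in a matrix of proteins. Most cuticular proteins carry the Rebers and Riddiford (RR) consensus, a stretch that binds chitin, and are named CPR. The genes described here are the others. CPG proteins are rich in glycine repeats, CPT proteins belong to the Tweedle family, named after a *Drosophila* mutant with a squat body, and CPFL proteins resemble the CPF family, which is defined by a short conserved stretch. CPH stands for hypothetical cuticular proteins, which were assigned to the cuticle without a motif in common. The silk gland is an ectodermal organ, and its anterior duct, through which the liquid silk is drawn out, is lined by a cuticular intima.

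The 9 libraries held 4527847 to 11641130 counted reads, and the strain medians were 6550057 (LAT51), 6942488 (MO204) and 9473236 (DMMMSU119). Levels are given as CPM, the reads of a gene scaled to a common library size, after TMM scaling, edgeR's trimmed-mean adjustment of library sizes. Its factors were 0.421 to 0.591 for DMMMSU119 libraries and 1.26 to 1.53 for the rest. A floor of 3 counts corresponded to 0.194 to 0.841 CPM. Genes of the silk gland checked the tissue, and their levels also differed between strains. The 3 posterior gland genes were FIBH, Fib-l and P25. Their sum was 49717 to 52876 CPM in LAT51, 61428 to 107177 CPM in MO204 and 327651 to 704013 CPM in DMMMSU119. The 3 middle gland genes summed to 39298 to 74867, 33514 to 65233 and 78345 to 150435 CPM in the same order. Among these, Ser2 was instead highest in LAT51-1, at 70156 CPM. Markers of other tissues differed between libraries as well. The 5 fat body genes were Sp1, Sp2, VG, Lsp-t and Lp-c6. Their summed level was 11.4 to 89.2 CPM in LAT51, 18.2 to 305 CPM in MO204 and 1020 to 39414 CPM in DMMMSU119. VG went the other way, at 5.16 to 9.81 CPM in LAT51 and 0 to 2.46 CPM in DMMMSU119. Sp1 in DMMMSU119-4, at 9.58 CPM, lay below LAT51-2 at 11.9 CPM and MO204-3 at 153 CPM. The muscle actin A1 reached 7723 CPM in DMMMSU119-0. In bulk glands, fewer cells of a type and less RNA per cell cannot be told apart.

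Most of these cuticular protein genes gave few or no reads in the gland. A count was found for 46 of the 70 (65.7%), against 84.7% of all IDs and 61.5% of the 135 CPR genes. The other 24 genes, 13 CPH, 9 CPG, 1 CPFL and 1 CPT, had no read in any library. A single library held reads for between 20 and 31 of the genes. Of the 46, a further 20 never exceeded 3 counts in a library. The low-count filter of edgeR kept 14 genes, 9 CPH and 5 CPG, which is 20% of the 70. The same filter kept 45.6% of all IDs and 14.8% of the CPR genes. Genes that were high in 1 strain alone could pass it, so counts and medians over the 14 are a description.

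The reads were concentrated in 1 gene, CPH43. It took between 92.2% and 99.7% of the reads on all 70 genes. All 70 together held 0.0678% to 0.104% of the counted reads in LAT51, 0.139% to 0.497% in MO204 and 1.79% to 2.40% in DMMMSU119. Without CPH43, the other 69 genes had 159 to 1963 counts per library.

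CPH43, also listed under the synonym CPH44, is a hypothetical cuticular protein gene. Its counts were 4282, 10125 and 4361 in LAT51-1, LAT51-2 and LAT51-4. They were 17544, 5961 and 34059 in MO204-1, MO204-3 and MO204-4, and 143589, 176728 and 168170 in DMMMSU119-0, DMMMSU119-2 and DMMMSU119-4. In CPM the mean was 615 ± 171 in LAT51, 1982 ± 1519 in MO204 and 38259 ± 6501 in DMMMSU119 (SD, n = 3 each). Every DMMMSU119 library lay far above the others, and on the CPM scale all MO204 libraries lay above all LAT51 libraries by a narrow gap. In edgeR's quasi-likelihood test with Benjamini–Hochberg adjustment, CPH43 was lower in LAT51 than in DMMMSU119 by a log2 fold change (log2FC) of -5.96 (SE 0.606, adjusted p = 0.000766). It was also lower in MO204 than in DMMMSU119, with a log2FC of -4.27 (SE 0.559, edgeR adjusted p = 0.00283). The difference between LAT51 and MO204 did not pass, at a log2FC of -1.69 (SE 0.502, edgeR adjusted p = 0.153). Without MO204-4, the highest MO204 library, it was -0.86 (edgeR adjusted p = 0.410), and MO204 against DMMMSU119 was -5.08 (edgeR adjusted p = 0.00149).

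Near-identical counts were found at 3 other loci. LOC101737792, listed as a long non-coding RNA gene whose span overlaps CPH43, held 99.4% to 101% of the CPH43 count in each library and exceeded it in 5 of 9. The share of CPH43 in the pair was 49.8% to 50.2%, and its exact 95% binomial interval held 50% in 8 of 9 libraries. Such an interval takes each read as counted at 1 locus alone, which is not known here. The protein-coding LOC119628831 held 95.9% to 98.9% of the CPH43 count and never exceeded it, with an interval that held 50% in 5 of 9 libraries. LOC119628848 held 62.6% to 79.9%. These loci were also the 3 non-member genes closest to CPH43 in pattern, with Pearson correlations of log2(CPM + 0.5) between 0.999827 and 0.999996 over the 9 libraries, as a description.

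The 4 loci gave nearly the same difference in every contrast. Between MO204 and DMMMSU119, for example, the log2FC was -4.27 at CPH43 and at LOC101737792, -4.25 at LOC119628831 and -4.37 at LOC119628848. The summed counts of the 4 loci were 0.235% to 0.351% of all counts in LAT51, 0.468% to 1.82% in MO204 and 6.60% to 8.80% in DMMMSU119. CPH43 was 26.6% to 27.8% of these sums. A read counted at several of the loci would enter a sum more than once. Fitted as 1 feature, a choice made after seeing the data, they gave a log2FC of -6.00 for LAT51 against DMMMSU119 (edgeR adjusted p = 0.000840). By the study's description, a read was counted for a gene if it met no other gene. How reads that fit several places were counted is not given in the sources used here. The study reports a larger share of such reads in DMMMSU119 than in LAT51 or MO204, for some libraries and with another aligner. Whether this bears on the strain differences at these loci, and whether the loci are copies of 1 gene, was not tested. The level of CPH43 by itself and the size of its strain differences are therefore uncertain, and the 4 rows are not 4 separate observations.

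**Figure D1:**
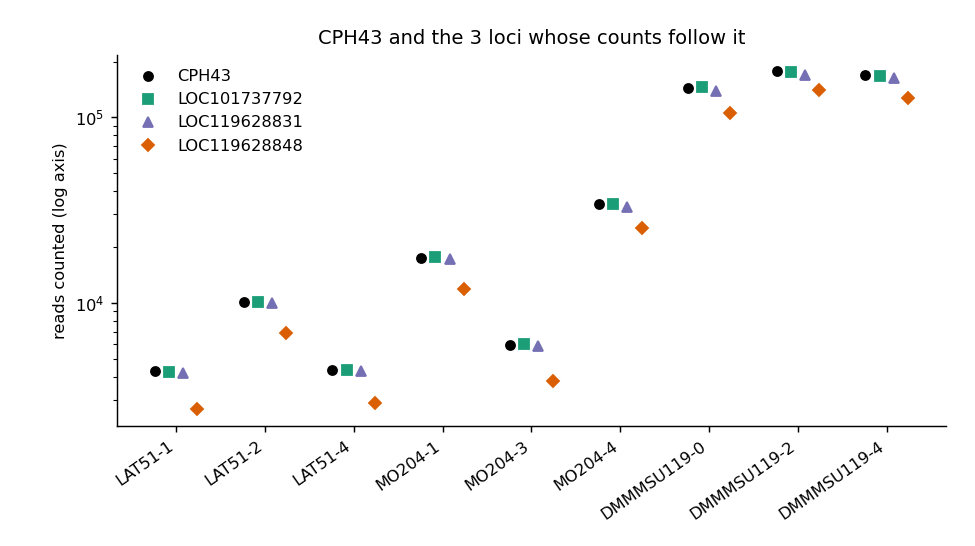
Reads counted on CPH43 and on 3 loci that follow it, on a log axis, in each of 9 libraries (x axis, 3 per strain). Within a library CPH43, LOC101737792 and LOC119628831 nearly coincide and LOC119628848 lies at 62.6% to 79.9% of CPH43, while the DMMMSU119 libraries stand above all others.

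No such partner was found for the other 12 tested genes with at least 100 counts in all. The closest match among them was CPH34 with CPH25, neighbours whose counts still differed by up to 71.4% in a library. The measure was the largest relative difference in any library, so copies with few counts in a library could be missed.

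Of the other tested genes, 8 had their highest CPM in DMMMSU119-0, namely CPH27, CPG18, CPG16, CPG17, CPH34, CPH24, CPH25 and CPG4. Another 3, CPH21, CPH18 and CPH19, were highest in DMMMSU119-4. CPG6 was highest in LAT51-4 and CPH4 in MO204-3. The plot of levels by library shows these separate high libraries.

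**Figure D2:**
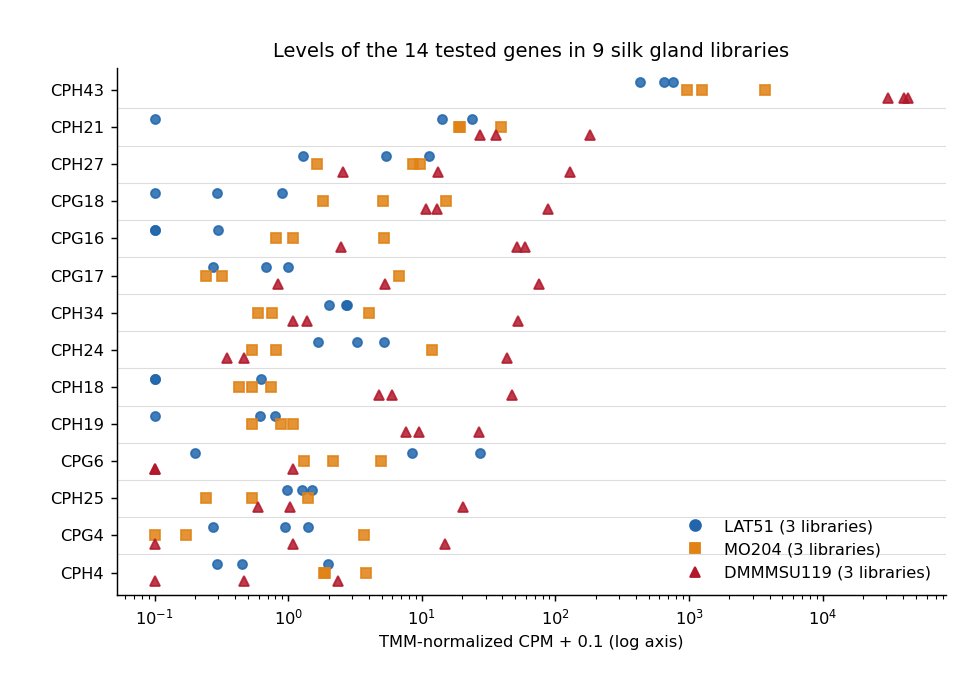
TMM-normalized CPM plus 0.1, on a log axis, of the 14 genes that passed the low-count filter, with 1 point per library and 3 libraries per strain. CPH43 lies between 428 and 43539 CPM, and in most other genes a single DMMMSU119 library lies far from the rest.

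LAT51 differed from DMMMSU119 in 7 of the 14 tested genes, 6 of them lower in LAT51 and 1 higher. Of all 7610 genes tested, 38.0% were called in this contrast at an adjusted p under 0.1, with 19.8% lower and 18.2% higher. The 6 lower genes were CPH43, CPH19, CPG16, CPH18, CPG18 and CPG17, and the higher one was CPG6. The median log2FC of the 14 was -2.95, with 12 below 0, beside 0.01 over all tested genes.

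CPH19 and CPH18, hypothetical cuticular protein genes that lie next to each other, were nearly silent outside DMMMSU119. CPH19 counts were 0, 8 and 4 in LAT51, 11, 6 and 4 in MO204, and 27, 38 and 145 in DMMMSU119. The latter correspond to 7.57, 9.36 and 26.7 CPM, above every other library, none of which exceeded 0.976 CPM. The log2FC of CPH19 was -5.19 in LAT51 against DMMMSU119 (SE 0.867, edgeR adjusted p = 0.00453) and -4.31 in MO204 against DMMMSU119 (SE 0.813, edgeR adjusted p = 0.0101). Without DMMMSU119-4 these were -4.38 and -3.50, and both passed (edgeR adjusted p = 0.0145 and 0.0312).

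CPH18 counts were 0, 0 and 3 in LAT51, 9, 2 and 4 in MO204, and 21, 19 and 258 in DMMMSU119. DMMMSU119-4 carried most of these reads, and the other DMMMSU119 libraries also lay above all those of LAT51 and MO204. With 3 counts in LAT51 against 298, the ratio was 238, with a 95% counting interval of 80.5 to 1159. That interval leaves out the spread between larvae. CPH18 was lower than in DMMMSU119 in LAT51, with a log2FC of -7.30 (SE 1.37, edgeR adjusted p = 0.00723). It was also lower in MO204, where the log2FC was -5.28 (SE 1.15, edgeR adjusted p = 0.0155). Without DMMMSU119-4 the log2FC against DMMMSU119 was -5.33 in LAT51 and -3.38 in MO204, and both passed (edgeR adjusted p = 0.0186 and 0.0557).

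The glycine-rich gene CPG16, with the synonym Bmhp20, had 2, 0 and 0 counts in LAT51. It had 10, 6 and 47 counts in MO204 and 209, 209 and 13 in DMMMSU119. DMMMSU119-4, at 2.40 CPM, lay below MO204-4 at 5.14 CPM, so those groups overlapped, while LAT51 lay below both. The ratio of DMMMSU119 to LAT51 was 515 (95% counting interval 142 to 4269, without the spread between larvae). LAT51 was lower with a log2FC of -8.86 (SE 1.59, edgeR adjusted p = 0.00617). MO204 was lower than DMMMSU119 with a log2FC of -4.03 (SE 1.11, edgeR adjusted p = 0.0327). That call was lost without MO204-1 or MO204-3 (log2FC -3.54 and -3.68, edgeR adjusted p = 0.115 and 0.106).

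CPG18 and CPG17 are glycine-rich genes that lie close together, with 1 gene between them. CPG18 counts were 8, 3 and 0 in LAT51, 24, 31 and 137 in MO204, and 314, 43 and 70 in DMMMSU119. LAT51 was below every other library, and MO204-4 was above 2 of the DMMMSU119 libraries on the CPM scale. The log2FC of CPG18 was -6.65 in LAT51 against DMMMSU119 (SE 1.30, edgeR adjusted p = 0.00861) and did not pass in MO204 against DMMMSU119, at -2.35 (SE 0.993, edgeR adjusted p = 0.113). Without DMMMSU119-0 the former was -4.98 and passed (edgeR adjusted p = 0.00987). DESeq2 did call CPG18 lower in MO204 than in DMMMSU119 (DESeq2 adjusted p = 0.0763), beside 28.6% of its genes called.

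CPG17 counts were 9, 9 and 1 in LAT51, 2, 41 and 2 in MO204, and 269, 21 and 4 in DMMMSU119. DMMMSU119-0 stood alone at 75.4 CPM, and DMMMSU119-4, at 0.737 CPM, lay within the LAT51 range of 0.175 to 0.899 CPM. LAT51 was lower with a log2FC of -5.48 (SE 1.80, edgeR adjusted p = 0.0484). Without DMMMSU119-0 it was -2.27 and did not pass (edgeR adjusted p = 0.294). It also did not pass without LAT51-1, LAT51-2 or LAT51-4, where the log2FC stayed between -5.88 and -5.17 (edgeR adjusted p = 0.122, 0.151 and 0.122). In MO204 against DMMMSU119 CPG17 did not pass by edgeR (edgeR adjusted p = 0.128). DESeq2 called it lower in MO204 (DESeq2 adjusted p = 0.0608).

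CPG6, also a glycine-rich gene, was the 1 gene called higher in LAT51. Its counts were 1, 129 and 156 in LAT51, 29, 30 and 11 in MO204, and 0, 4 and 0 in DMMMSU119. LAT51-1, at 0.0998 CPM, lay within the DMMMSU119 range, so the groups overlapped. The log2FC was 5.16 (SE 1.69, edgeR adjusted p = 0.0476), and it no longer passed without LAT51-4 (log2FC 3.66, edgeR adjusted p = 0.144) and also not without DMMMSU119-0 or DMMMSU119-4 (edgeR adjusted p = 0.10 and 0.127).

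MO204 differed from DMMMSU119 in 6 of the 14 tested genes, all lower in MO204. Over all tested genes, 33.0% were called, with 16.7% lower in MO204. CPH43, CPH19, CPH18 and CPG16 were called in both contrasts with DMMMSU119, which share those 3 libraries. CPH25 and CPH34, hypothetical cuticular protein genes, were called here only narrowly. The median log2FC of the 14 was -3.20, with 12 below 0, beside 0.03 over all tested genes. With library size alone as the scaling, which moved the median of all genes by 1.397, CPH25 and CPH34 were not called, CPH4 and CPG6 were called higher in MO204, and the split became 2 higher and 4 lower in place of 0 and 6. Under that scaling 73.0% of all genes were called.

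CPH34 counts were 26, 41 and 11 in LAT51, 7, 24 and 6 in MO204, and 188, 4 and 7 in DMMMSU119. DMMMSU119-0, at 52.7 CPM, was the only library above 3.90 CPM, and DMMMSU119-2 and DMMMSU119-4 lay below all LAT51 libraries. The log2FC in MO204 against DMMMSU119 was -3.52 (SE 1.404, edgeR adjusted p = 0.0969). Without DMMMSU119-0 its sign turned, at 0.50 (edgeR adjusted p = 0.722).

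CPH25 had 14, 18 and 5 counts in LAT51, 2, 8 and 4 in MO204, and 72, 2 and 5 in DMMMSU119. Only DMMMSU119-0 was high, and the other DMMMSU119 libraries lay within the MO204 range. The log2FC in MO204 against DMMMSU119 was -3.62 (SE 1.30, edgeR adjusted p = 0.0734), and without DMMMSU119-0 it was -0.31 (edgeR adjusted p = 0.837). Both calls, near the threshold, were also lost without LAT51-1, LAT51-2, MO204-1 or MO204-4, at adjusted p-values of 0.107 to 0.216 for CPH25 and 0.137 to 0.260 for CPH34, and that of CPH34 without LAT51-4 (edgeR adjusted p = 0.126).

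**Figure D3:**
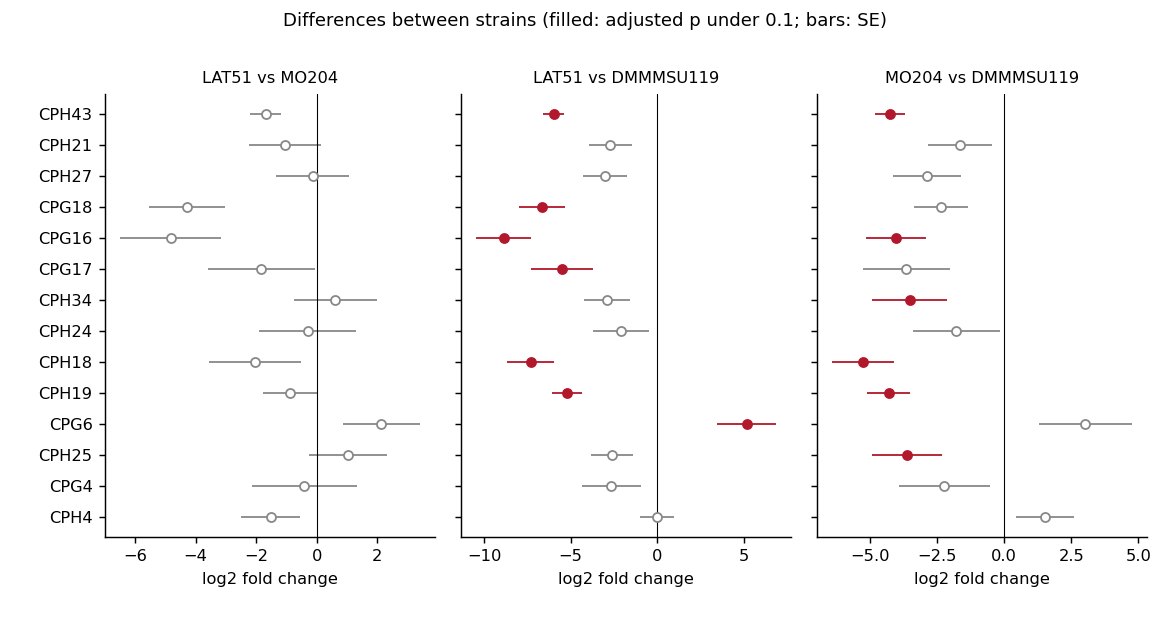
Log2 fold changes of the 14 tested genes in 3 strain contrasts, with bars of 1 SE, where values below 0 are lower in the strain named first and filled points passed edgeR's quasi-likelihood test at an adjusted p under 0.1. No point is filled in LAT51 against MO204, 7 are filled in LAT51 against DMMMSU119 and 6 in MO204 against DMMMSU119.

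LAT51 against MO204 gave no call among the 14 genes by edgeR, where 3.07% of all tested genes were called. At an unadjusted p under 0.05 there were 3 genes, beside 13.0% of all genes, and DESeq2 called CPH43, CPG16 and CPG18 lower in LAT51, beside 5.68% of its genes called and 3.03% called lower. The smallest edgeR adjusted p was 0.145, for CPG18, whose log2FC was -4.29 (SE 1.25). The ratio of MO204 to LAT51 for CPG16, with 63 against 2 counts, was 33.5 (95% counting interval 8.90 to 283). That interval leaves out the spread between larvae, and edgeR did not call CPG16 (edgeR adjusted p = 0.232). MO204-4 held 47 of the 63 counts, and without it the log2FC of LAT51 against MO204 moved from -4.83 to -3.37 for CPG16 and from -4.29 to -3.15 for CPG18 (edgeR adjusted p = 0.562 and 0.373). The median log2FC of the 14 was -0.96, beside -0.01 over all genes.

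CAR vs. TCMO, the comparison of sites in which MO204 and DMMMSU119 form 1 group, also gave no call by edgeR, and 1.48% of all genes were called. There were 7 genes at an unadjusted p under 0.05, beside 15.7% of all genes. DESeq2 called CPH43, CPH19, CPH18, CPG16 and CPG18 lower at CAR, beside 9.86% of its genes called and 7.78% called lower. The log2FC of CPH43 was -5.03 with an SE of 1.50 (edgeR adjusted p = 0.184). A model with 1 mean per strain called 6 genes, the same 5 lower and CPG6 higher, beside 15.8% of all genes. The median log2FC was -2.14 over the 14 genes and -0.04 over all genes.

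Of the tested genes, 5 were not called by edgeR in any contrast, namely CPH21, CPH27, CPH24, CPG4 and CPH4. CPH21, a hypothetical cuticular protein gene, had 0, 219 and 136 counts in LAT51, 543, 116 and 176 in MO204, and 127, 111 and 979 in DMMMSU119. Its MO204 range of 18.9 to 38.7 CPM overlapped both other strains, and DMMMSU119-4 stood at 180 CPM. CPH27 had 12, 173 and 30 counts in LAT51, 135, 52 and 14 in MO204, and 461, 10 and 71 in DMMMSU119, with its peak of 129 CPM in DMMMSU119-0. DESeq2 did call CPH27 lower in LAT51 and in MO204 than in DMMMSU119 (DESeq2 adjusted p = 0.0375 and 0.0509), beside 32.8% and 28.6% of its genes called. CPH24 had 154 counts in DMMMSU119-0 but only 1 and 2 in the other DMMMSU119 libraries, fewer than in any LAT51 library. CPG4, with the synonym Cpa, and CPH4 stayed at or below 14.9 and 3.74 CPM. The span of CPH4 overlaps other genes in the gene table.

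Most tested CPH genes lay in 1 run of neighbours, as did most CPH genes whether tested or not. In the RefSeq gene table, 23 of the 34 CPH genes form this run, from CPH27 to CPH6. At most 2 protein-coding genes lie between neighbours, and none in 18 of the 22 steps. The stretch of 11 genes from CPH27 to CPH18 held 7 of the 9 tested CPH genes and 4746 counts over all libraries, and 3 of its genes had none. The adjoining stretch of 12 genes from CPH17 to CPH6 held 6 counts in all, and 9 of its genes had none. The boundary after CPH18 was placed with these counts known, so the contrast of the 2 stretches is a description. Another run of 10 CPG and CPH genes from CPG25 to CPH32 included 1 tested gene, CPG4, and 7 without a read. The order comes from another assembly than the authors' and is used only for neighbours.

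**Figure D4:**
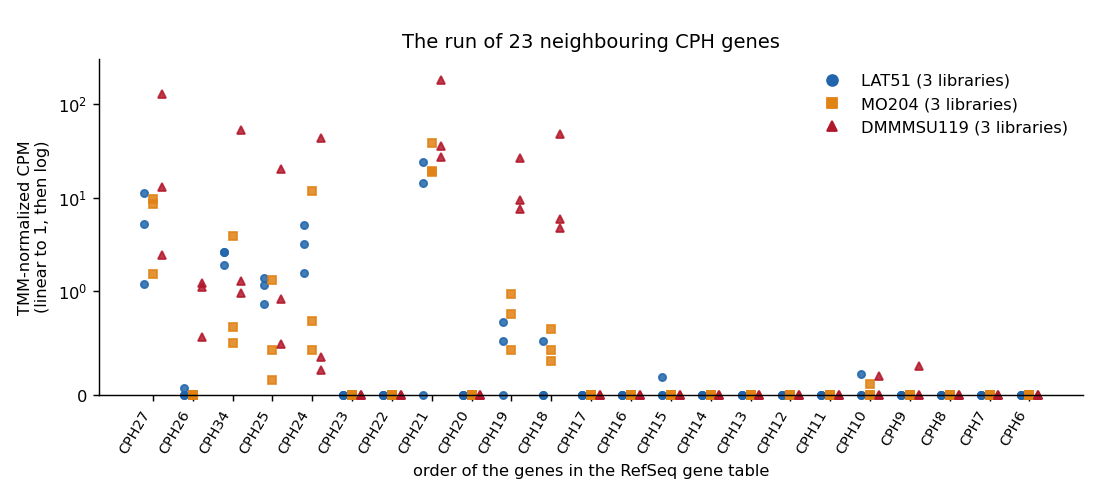
TMM-normalized CPM (linear up to 1, then log) in 9 libraries, 3 per strain, of 23 neighbouring CPH genes in the order of the RefSeq gene table. The genes from CPH27 to CPH18 hold nearly all reads, with 4746 counts against 6 in the stretch from CPH17 to CPH6. The boundary was placed with the counts known.

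Below the filter, 12 genes exceeded 3 counts in some library, with 7 to 54 counts over all 9 libraries. In 9 of these 12 the highest count was in a DMMMSU119 library. CPT2, a Tweedle gene with the synonym BmGRP1, had 36 of its 54 counts in DMMMSU119-4. CPH32 had 9, 19 and 4 counts in DMMMSU119, 3, 2 and 0 in LAT51, and 0, 0 and 1 in MO204. CPG19 instead had its highest count in LAT51-2, with 16 of 33. CPG10 had no read in MO204, 1 to 3 counts in LAT51 and 2 to 7 in DMMMSU119. These genes entered no edgeR test with the main filter on all 9 libraries. With a minimum of 10 counts in total instead, edgeR called CPH26, CPH28 and CPH32 lower in LAT51 than in DMMMSU119, beside 26.9% of all genes, and CPG10, CPH26 and CPH32 lower in MO204 than in DMMMSU119, beside 21.4%. DESeq2 called CPH28 and CPH32 lower in LAT51, and CPT2, CPG10 and CPH32 lower in MO204. CPH32 also passed the main filter in some fits with a library left out. Without MO204-1, for example, it was called lower in LAT51 and in MO204 than in DMMMSU119.

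Other genes of the cuticle were counted from lists of known names. Of the 20 CPR genes tested, 2 were higher and 3 lower in LAT51 than in DMMMSU119, beside 38.0% of all genes called. In MO204 against DMMMSU119, 2 were higher and 4 lower, beside 33.0% of all genes, and in LAT51 against MO204 2 were lower, beside 3.07%. The 2 chitin genes matched had at most 3 counts per library in sum, and neither was tested. Of 9 tanning genes, 2 were tested. Aanat, which makes N-acetyldopamine for the hardening of cuticle, had 0, 20 and 22 counts in LAT51, 122, 60 and 17 in MO204, and 274, 103 and 820 in DMMMSU119. Every DMMMSU119 library lay above the rest on the CPM scale, and Aanat was lower in LAT51 (log2FC -5.74, edgeR adjusted p = 0.0101) and in MO204 (log2FC -3.64, edgeR adjusted p = 0.0357). The pigment gene family member yellow-f was lower in LAT51 than in DMMMSU119, with a log2FC of -3.28 (edgeR adjusted p = 0.0152).

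Ecdysone and juvenile hormone time the making of cuticle, and 7 of the 9 hormone response genes matched were tested. All 7 differed between LAT51 and DMMMSU119, with Hr3, Kr-h1 and Br-c higher in LAT51 and USP, EcR, E75 and E74 lower, beside 38.0% of all genes called. Between MO204 and DMMMSU119, 2 were higher and 4 lower, beside 33.0% of all genes. Hr3, a nuclear receptor of the ecdysone cascade, was at 7.36 to 16.7 CPM in LAT51, 1.31 to 3.41 CPM in MO204 and 0.922 to 1.96 CPM in DMMMSU119. LAT51 was above every other library, and Hr3 was higher in LAT51 than in MO204 with a log2FC of 2.59 (edgeR adjusted p = 0.0381).

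Markers of other tissues moved with some of these genes. In DMMMSU119-0, the highest library of 8 tested genes, A1 was at 7723 CPM and the 5 fat body genes summed to 39414 CPM, both the highest of all libraries. MO204-3, which was second highest for CPG17, CPH34, CPH24 and CPG4, had the next highest A1, at 397 CPM. For the rest of the 8 genes, A1 was low in the second highest library. These libraries were LAT51-1 for CPH25, DMMMSU119-2 for CPG16, MO204-4 for CPG18 and DMMMSU119-4 for CPH27. Their A1 levels were 2.90, 12.1, 15.9 and 6.45 CPM in that order. DMMMSU119-4, the highest library of CPH18, CPH19 and CPH21, had 6.45 CPM of A1 and a fat body sum of 1020 CPM. DMMMSU119-2 had the second highest fat body sum, 11287 CPM, with 12.1 CPM of A1, and its levels of CPH24, CPH34 and CPH25 were low, at 0.246, 0.985 and 0.493 CPM. The 6 epidermis and trachea genes Lac2, Th, Ebony, Y-y, Btl and trh summed to only 0.775 to 3.13 CPM, or 8 to 17 counts, and Y-y was at 0 throughout. The 3 hemocyte genes summed to 5.89 to 28.0 CPM. The part of other tissues in these results was not tested.

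**Figure D5:**
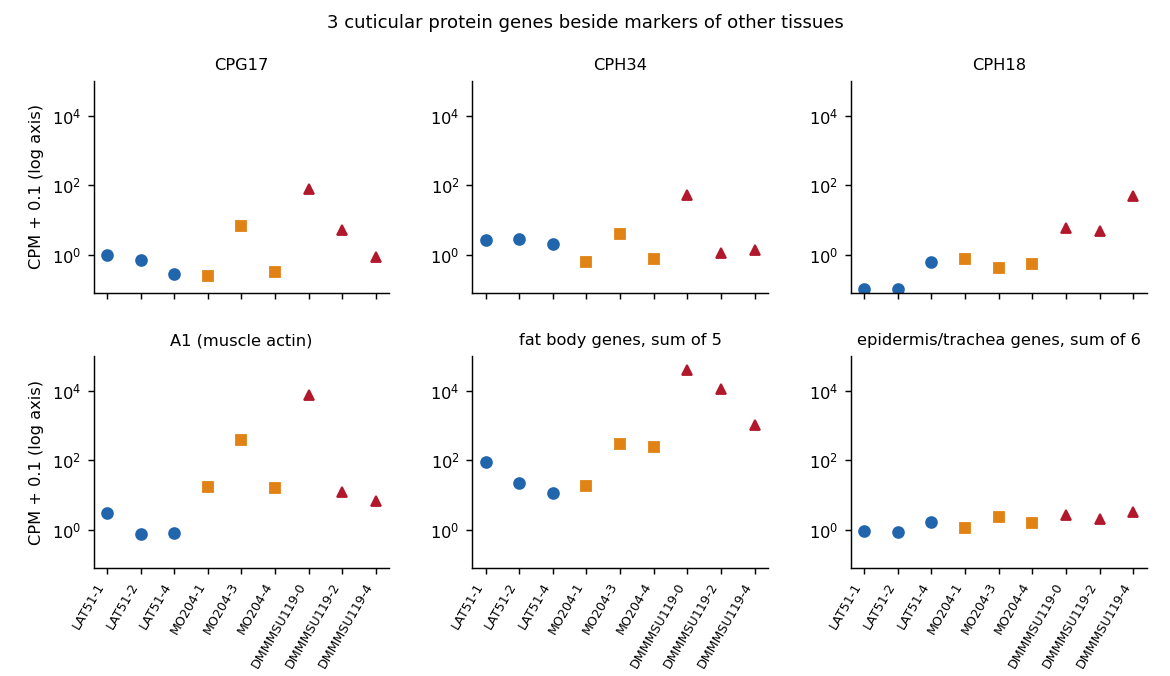
CPM plus 0.1, on a log axis, of CPG17, CPH34 and CPH18, the muscle actin A1, the sum of 5 fat body genes and the sum of 6 epidermis and trachea genes in 9 libraries, colored by strain. CPG17, CPH34, A1 and the fat body sum peak in DMMMSU119-0, CPH18 peaks in DMMMSU119-4, and the epidermis and trachea sum stays between 0.775 and 3.13 CPM.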

How the data were processed

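Silk gland RNA was sequenced from 9 larvae, grouped by strain and site as labelled. The authors aligned reads with HISAT2 2.1.0, counted them per gene with featureCounts 1.4.6-p5, and deposited unnormalized counts. The versions come from the submitters' processing notes. The kit was stranded, but the strand setting of the counting is not given in the sources used here. A deposited log2 table was not used. The genome build is not that of the gene table (RefSeq, ASM3026992v2), which matched all 70 genes by symbol and served for synonyms, gene types and neighbours only. Spans there are not transcript lengths, so levels were not ranked between genes per length. No sequences were used.

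Counts were filtered with filterByExpr, scaled with TMM and tested with edgeR 4.0.16 (limma 3.58.1, R 4.3.3) by a quasi-likelihood model. CAR vs. TCMO had location as the factor, and strain contrasts had 1 mean per strain over all 9 libraries. P-values were adjusted by Benjamini–Hochberg over 7610 genes, and an adjusted p under 0.1 was a call. SEs came from the F statistic. The tests were tested on simulated data. Python 3.11.15 made the derived tables and plots. Genes named are the 10 with the highest mean CPM, all calls, genes with over 90% of at least 20 counts in 1 library (0 found) and copies. Copies by protein identity were not looked for. The genes below the filter, the 3 loci near CPH43, the boundary after CPH18 and the pathway genes given as examples were chosen after their values were seen. The genes, lists and tests were chosen with earlier results of these data known.

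Alternatives were DESeq2 1.42.0 (size factors, or its Wald test), TMM without the 10 top genes, library size alone, no filter, a minimum of 10 counts in total, 1 mean per strain, a block for replicate numbers, and leaving out each of the 9 libraries. Same-numbered libraries are different larvae, and their deviations correlated between -0.16 and 0.25. Libraries of different numbers were not correlated for comparison, so whether the numbers mark a pairing was not tested. Replicates differed beyond counting noise (chi-square per degree of freedom 49.5 to 218 over 9 pairs). Intervals and floors cover counting error only.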

Additional observations from a re-analysis of the deposited data

Results flagged for a closer look

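Within the 6 TCMO libraries, 10 of the 14 tested genes had 1 library far from the other 5, judged by its gap to the nearest library as a share of the whole range, against a limit of 0.625. The limit corresponds to about 1 in 20 such groups by chance for normally distributed values. Whether these CPM values are normally distributed was not tested, and the 6 libraries are of 2 strains. The 10 of 14 are therefore a description and are not compared with that rate. The share of all tested genes past the limit was not computed, so whether 10 of 14 is unusual is not known. Groups of 3 libraries were not judged by this gap.

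DMMMSU119-0 stood apart in 7 genes. The gap took 0.942 of the range for CPH25 (20.2 CPM, nearest 1.30), 0.935 for CPH34 (52.7 CPM, nearest 3.90) and 0.913 for CPG17 (75.4 CPM, nearest 6.67). It took 0.909 for CPH27 (129 CPM, nearest 13.1) and 0.846 for CPG18 (88.0 CPM, nearest 15.0). For CPG4 it was 0.759 (14.9 CPM, nearest 3.58) and for CPH24 0.729 (43.2 CPM, nearest 11.9).

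DMMMSU119-4 stood apart in 3 genes of the CPH27 to CPH18 stretch. The share was 0.882 for CPH18 (47.6 CPM, nearest 5.89), 0.877 for CPH21 (180 CPM, nearest 38.7) and 0.661 for CPH19 (26.7 CPM, nearest 9.36). The cause of neither pattern was tested.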

How the results depend on the processing

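The number of genes called in LAT51 against DMMMSU119, 7 as reported, lay between 5 and 10 under every alternative run, and between 5 and 10 when 1 library was left out. In MO204 against DMMMSU119 it was 4 to 8 with 1 library left out. It was 2 (CPH43 and CPH18) with a replicate block, where CPG16 reversed to a log2FC of 0.026. These numbers include genes that did not pass the main filter on all libraries. Without MO204-1, the 4 calls were CPH43, CPH19, CPH18 and CPH32, and those of CPH34, CPH25 and CPG16 were lost. CPG6 was called higher in MO204 without LAT51-1, and CPH4 without DMMMSU119-0. With no filter, the 10 calls in LAT51 against DMMMSU119 included CPH26, CPH28 and CPH32. With 1 library left out, the log2FC of CPH34 ran from -4.93 to 0.50, the reversal being without DMMMSU119-0. LAT51 against MO204 gave 3 calls by the DESeq2 Wald test and 0 to 1 with 1 library left out (CPG18 without DMMMSU119-0, CPG16 without DMMMSU119-4). CAR vs. TCMO gave 5 by DESeq2, 6 with 1 mean per strain and 0 to 1 with 1 library left out (CPG18 without MO204-1 or without DMMMSU119-0). With the block, LAT51 against DMMMSU119 gave 7 calls and the other contrasts with LAT51 gave 0, with CPG6 lost (4.78, adjusted p = 0.173) and CPH24 gained, its log2FC turning from -2.09 to 3.16 (adjusted p = 0.0432). Only DMMMSU119-0 carries replicate number 0 and only MO204-3 number 3. With the block each therefore has its own term and does not enter the strain differences. CPH24 was at 43.2 CPM in DMMMSU119-0 and at 0.246 and 0.369 CPM in the other DMMMSU119 libraries. MO204 and DMMMSU119 share only number 4, where CPG16 was at 5.14 CPM in MO204-4 and 2.40 CPM in DMMMSU119-4. Beyond this, the cause of these changes was not tested. The calls of CPH43 and CPH18 against DMMMSU119 passed under every alternative that gave a value, and DESeq2 gave none for CPH18. CPH25 lost its call in 9 of 15 alternatives and CPH34 in 10 of 15. Of all values given for named genes under an alternative, 262 kept their direction and side of the threshold, 29 lost the call, 13 gained one and 2 reversed. Library size alone moved the median log2FC of all genes by 1.38 in LAT51 against DMMMSU119, where 5086 of 5657 called genes were then higher in place of 1383 of 2891. In MO204 against DMMMSU119 it was 5181 of 5559 in place of 1240 of 2513, and in CAR vs. TCMO 41 of 62 in place of 54 of 113. Counts of all calls in CAR vs. TCMO ran from 2 with the block to 1205 with 1 mean per strain.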
